A study of Homo sapiens with 3 samples.

Results

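The urea cycle and its outlet into polyamines were followed through 10 genes, taken by gene name from the tables of all 61533 annotated genes. They are NAGS, CPS1, OTC, ASS1, ASL, ARG1 and ARG2, which encode the enzymes of the cycle and the activator step before it, the mitochondrial carriers SLC25A13 and SLC25A15, and the ornithine decarboxylase gene ODC1. All 10 were found once in each table. The cells were Hep3B, an established human hepatoma line labelled as wild type, grown in DMEM with fetal bovine serum. One culture was kept at 1% oxygen with sodium oxamate, a pyruvate analogue that inhibits lactate dehydrogenase, another at 1% oxygen alone (hypoxia), and the last at 20% oxygen (normoxia). The design text gives 48 hours for the treated culture. No dose of oxamate and no hours for the culture at 1% oxygen alone were given in the sources used here. Whether both low-oxygen cultures were matched in time is therefore not known. The series title concerns lactate, histone lactylation and the lipoprotein receptor SCARB1.

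The urea cycle disposes of ammonia in the liver. It begins in the mitochondrion, where ammonia and bicarbonate become carbamoyl phosphate and then citrulline, and it ends in the cytosol, where arginine is split into urea and ornithine. Ornithine re-enters the mitochondrion, or is decarboxylated to putrescine, the parent of the polyamines spermidine and spermine that proliferating cells need. A full cycle is a property of periportal hepatocytes, and hepatoma lines often express only some of its enzymes.

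Each condition was 1 library of polyadenylated RNA. There is therefore no replicate check and no p-value, and differences between cultures cannot be told apart from those between treatments. The libraries held 24826365 fragments assigned to genes with oxamate, 26309340 in hypoxia and 27412147 in normoxia. Levels are given in the deposited FPKM (fragments per length of exon and size of library), and differences between libraries as ratios of normalised fragments with exact 95% binomial intervals, which hold counting error alone. A gene counted as measured in a comparison if 1 of the libraries had at least 50 fragments, and it was called higher or lower at a ratio of at least 2. As a check of the cell type, 10 of 12 hepatocyte markers were measured, and their summed level was 11641 CPM (a share of the normalised library total) with oxamate, 20226 CPM in hypoxia and 31472 CPM in normoxia. Markers of endothelial cells summed to 20.6 CPM with oxamate, 8.57 CPM in hypoxia and 1.70 CPM in normoxia, and those of blood and myeloid cells to 62.8, 35.0 and 43.5 CPM in these libraries. For stellate cells and fibroblasts the sums with oxamate, in hypoxia and in normoxia were 30.3, 35.7 and 30.5 CPM, for kidney tubule 1.00, 1.52 and 0.464 CPM, for cholangiocytes 992, 834 and 1267 CPM, and for intestinal epithelium 262, 414 and 360 CPM. KDR, HBB, MPO, DCN, ACTA2, CDX1, MUC2 and UMOD, defining markers of the non-hepatic types, had 0 fragments in all 3 libraries. Other markers of those types were detected and moved. PECAM1 (endothelial) had 499 fragments with oxamate, 230 in hypoxia and 33 in normoxia, LYZ (myeloid) 1499, 880 and 965, PDGFRB (stellate) 110, 438 and 315, and CDX2 (intestinal) 8, 42 and 214. The hepatocyte sum was mostly ALB, at 6813 CPM with oxamate, 8892 CPM in hypoxia and 18304 CPM in normoxia, and TF did not follow it, at 1707, 5057 and 1495 CPM. The cultures were of a cell line, so fragments of these markers do not show that cells of other types were present. The part of these marker differences in the results below was not tested, and fewer cells with a marker cannot be told apart from less RNA per cell.

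The question of the first comparison was how these genes stood at low oxygen, and the question of the second was whether they differed further with oxamate added. In hypoxia the entry enzyme CPS1, the citrulline-consuming enzyme ASS1, the ornithine carrier SLC25A15 and ODC1 were all lower than in normoxia, by 119-fold for CPS1 (2 fragments against 223), 7.74-fold for ASS1, 4.12-fold for ODC1 and 2.22-fold for SLC25A15. With oxamate added, ODC1 was 3.53-fold higher than in hypoxia, while ASS1 stood at 0.983 of its hypoxic value. ARG2, the mitochondrial arginase, was 2.25-fold higher with oxamate than in normoxia. Of the 7 genes measured in hypoxia against normoxia, 4 were lower and 0 higher, where 8.52% of 11849 measured protein-coding genes were lower and 8.11% higher. Of the 7 measured in oxamate against hypoxia, 1 was higher and 0 lower, against 5.04% higher and 4.79% lower among 11878 protein-coding genes. Of the 8 measured in oxamate against normoxia, 1 was higher and 5 lower, against 12.2% higher and 16.4% lower among 11863.

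CPS1 entered these counts only through its normoxic fragments, and NAGS only through its oxamate fragments, so the counts describe the measured genes and not all 10. The members were also chosen with earlier results of these data known, so an excess over all genes is not independent evidence. OTC and ARG1 stayed under 50 fragments everywhere. The median log2 ratio of the measured members was -1.15 in hypoxia against normoxia, beside -0.16 for all measured protein-coding genes, and -0.02 in oxamate against hypoxia, beside -0.03. In oxamate against normoxia it was -1.38, beside -0.18. These comparisons share libraries, since the hypoxia library is the denominator of one ratio and the numerator of another, so they are not independent of each other.

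**Figure D1:**
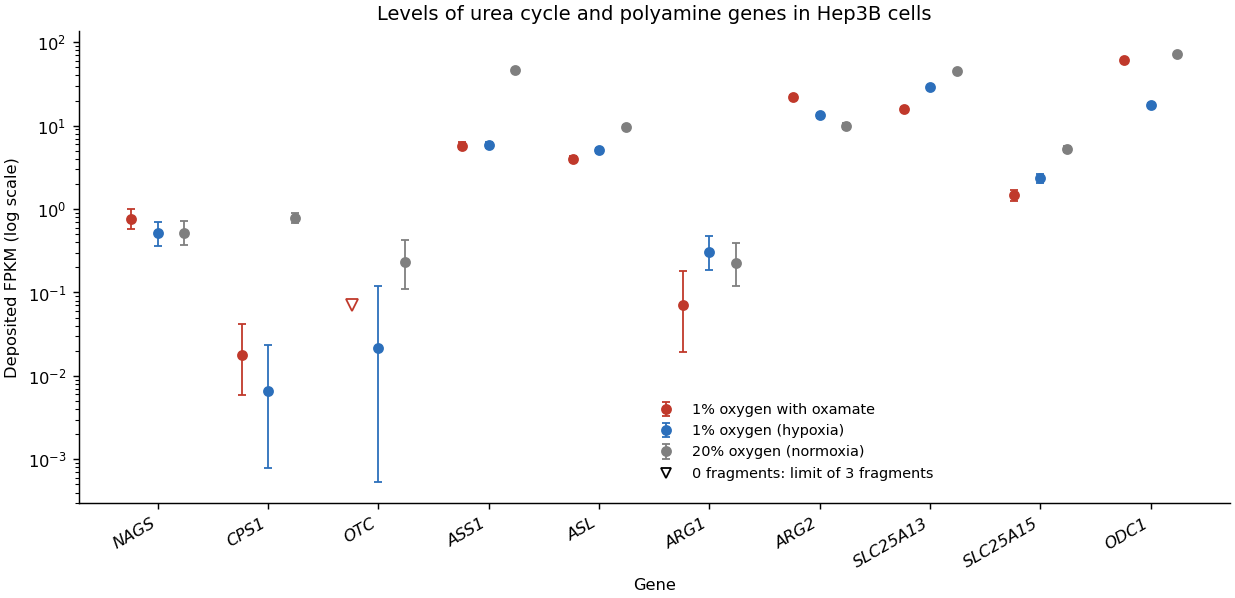
Deposited FPKM (log axis) of the 10 genes, ordered by their place in the pathway, in 1 library each of 1% oxygen with oxamate (red), 1% oxygen (blue) and 20% oxygen (grey); bars are exact 95% Poisson intervals, which cover counting error only. ODC1 stood at 61.4, 17.5 and 72.9 FPKM, ASS1 at 5.77, 5.90 and 46.1 FPKM, and the open triangle marks OTC with 0 fragments, drawn at the level of 3 fragments.

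**Figure D2:**
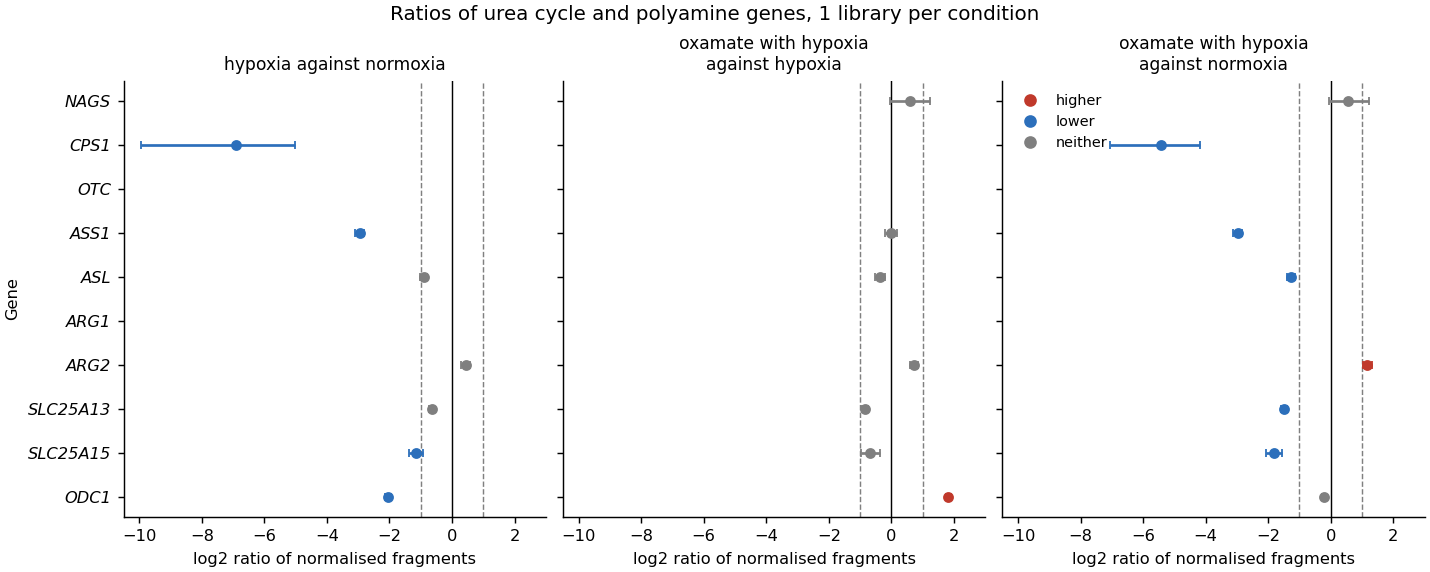
Log2 ratios of normalised fragments for the measured genes in each comparison, with exact 95% binomial intervals; dashed lines mark 2-fold, and red, blue and grey points are called higher, lower or neither. Genes without a point had under 50 fragments in both libraries, and the CPS1 interval is wide because hypoxia held 2 fragments.

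The first committed step is catalysed by CPS1, carbamoyl phosphate synthetase, which works only when bound to N-acetylglutamate, the product of NAGS. CPS1 (chr2:210477682-210679107, hg38, plus strand) had 5 fragments with oxamate, 2 in hypoxia and 223 in normoxia, or 0.0179, 0.00653 and 0.787 FPKM. It was therefore near the limit of detection in both low-oxygen cultures and at percentile 27.4 of detected protein-coding genes in normoxia. The ratio of hypoxia to normoxia was 119-fold lower (interval 32.6 to 991), a size that rests on 2 fragments and comes to -5.89 on the log2 scale with a prior count of 2, against -6.90 without it. The ratio of oxamate to normoxia was 43.1-fold lower (18.2 to 134). Between oxamate and hypoxia the 5 and 2 fragments gave a ratio of 2.77 with an interval of 0.453 to 29.04, so no difference was detectable at this depth. An RNA annotated inside a CPS1 intron, CPS1-IT1, had 0 fragments in every library.

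NAGS, the activator synthase, did not follow CPS1. It had 53 fragments with oxamate, 39 in hypoxia and 37 in normoxia, and its levels were 0.762, 0.510 and 0.523 FPKM. With oxamate the ratio was 1.503 to hypoxia (0.976 to 2.33) and 1.48 to normoxia (0.955 to 2.32), and both intervals included 1. Hypoxia against normoxia was not measured under the 50-fragment rule, and the ratio of 0.985 had an interval of 0.612 to 1.59. CAD, whose cytosolic carbamoyl phosphate synthetase domain serves pyrimidine synthesis and does not depend on NAGS, remained well detected, with 2035 fragments with oxamate, 3705 in hypoxia and 5892 in normoxia. It was 1.70-fold lower in hypoxia than in normoxia (1.63 to 1.77) and 2.80-fold lower with oxamate than in normoxia (2.66 to 2.95).

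OTC, ornithine transcarbamylase, joins carbamoyl phosphate to ornithine to give citrulline, and its gene is X-linked. It had 0 fragments with oxamate, 1 in hypoxia and 10 in normoxia. In normoxia that was 0.231 FPKM (0.111 to 0.425). Against the limit of 3 fragments that a count of 0 allows, OTC was at least 3.223-fold lower with oxamate than in normoxia. The ratio of hypoxia to normoxia, 10.7-fold lower, rested on 1 fragment and had an interval of 1.52 to 464. No fold is given between oxamate and hypoxia, where both libraries were under the limit.

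ASS1, argininosuccinate synthetase, couples citrulline to aspartate and makes the cell independent of external arginine. The gene (chr9:130444961-130501274, plus strand) had 440 fragments with oxamate, 495 in hypoxia and 3582 in normoxia. Its levels were 5.77, 5.90 and 46.1 FPKM, so both low-oxygen libraries were alike and far under normoxia. In rank among detected protein-coding genes it stood at percentile 61.5 with oxamate, 61.8 in hypoxia and 94.3 in normoxia. ASS1 was 7.74-fold lower in hypoxia than in normoxia (7.04 to 8.52) and 7.87-fold lower with oxamate than in normoxia (7.13 to 8.71). Between oxamate and hypoxia the ratio was 0.983, with an interval of 0.863 to 1.12 that included 1. The 14 annotated ASS1 processed pseudogenes together held 15, 18 and 20 fragments in the same order of libraries. With them added, the log2 ratio of hypoxia to normoxia was -2.91 in place of -2.95, and the call was kept.

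ASL, argininosuccinate lyase, follows ASS1 and releases arginine and fumarate. It had 601 fragments with oxamate, 851 in hypoxia and 1494 in normoxia, or 3.94, 5.07 and 9.63 FPKM, with each library lower than the next. It was 1.88-fold lower in hypoxia than in normoxia (1.73 to 2.05), short of the 2-fold rule, and 1.28-fold lower with oxamate than in hypoxia (1.15 to 1.42). Against normoxia the oxamate library was 2.40-fold lower (2.19 to 2.65). Per exon length, the level of ASS1 was 1.46 times that of ASL with oxamate, 1.16 times in hypoxia and 4.79 times in normoxia, and in hypoxia the counting intervals of both genes' FPKM overlapped. The exon length given for ASL in the tables was 6031 bases, against 3195 in GENCODE 29, which lowers its FPKM relative to other genes but not its ratios between libraries.

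The pseudogene ASLP1 went the opposite way to ASL. It had 125 fragments with oxamate, 78 in hypoxia and 24 in normoxia, equal to 20.8%, 9.17% and 1.61% of the ASL fragments. With its fragments added to those of ASL, the log2 ratio of oxamate to normoxia was -1.02 in place of -1.26, and the gene still passed the 2-fold rule. How fragments that match both loci were assigned is not given in the sources used here. In GENCODE 29, 17.6% of ASL exon bases also belong to a readthrough gene, which held 4 fragments with oxamate and 0 in the other libraries.

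Arginine is split to ornithine and urea by ARG1 in the hepatocyte cytosol and by ARG2 in mitochondria of many tissues. ARG1, the hepatic form, had 4 fragments with oxamate, 19 in hypoxia and 13 in normoxia, all under 0.31 FPKM. Its ratio of oxamate to hypoxia was 4.29-fold lower with an interval of 1.43 to 17.4, and it was not called because neither library reached 50 fragments. The ARG1 gene body overlaps MED23 on the opposite strand, which had 1565 fragments with oxamate, 1451 in hypoxia and 982 in normoxia. They share no exon bases in GENCODE 29, and whether ARG1 fragments came from MED23 was not tested. ARG2 (chr14:67619920-67651708, plus strand) had 1273 fragments with oxamate, 845 in hypoxia and 584 in normoxia, or 22.0, 13.3 and 9.94 FPKM. It was the only measured member whose level was highest with oxamate and lowest in normoxia with no counting intervals overlapping. The ratios were 1.67 for oxamate against hypoxia (1.53 to 1.82), 1.35 for hypoxia against normoxia (1.22 to 1.51) and 2.25 for oxamate against normoxia (2.04 to 2.49). Per exon length ARG2 exceeded ARG1 by 309-fold with oxamate, 43.2-fold in hypoxia and 43.6-fold in normoxia. The sizes of these ratios are loose, since they rest on 4, 19 and 13 ARG1 fragments. The ARG1 counting intervals were 0.0194 to 0.183 FPKM with oxamate, 0.185 to 0.481 FPKM in hypoxia and 0.121 to 0.389 FPKM in normoxia.

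In GENCODE 29, 37.4% of ARG2 exon bases overlap VTI1B, a vesicle SNARE gene on the opposite strand. The protocols do not say that the libraries mark strand, and without strand fragments of the shared stretch cannot be told apart. VTI1B had 575 fragments with oxamate, 920 in hypoxia and 954 in normoxia, and so was lowest where ARG2 was highest. Leaving out genes with over 10% overlap removed ARG2 and with it the only higher call in oxamate against normoxia.

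SLC25A13 encodes citrin, the liver form of the aspartate-glutamate carrier, which exports mitochondrial aspartate for ASS1. It had 1498 fragments with oxamate, 2960 in hypoxia and 4357 in normoxia, or 16.0, 28.7 and 45.7 FPKM, and no pair of its counting intervals overlapped. It was 1.57-fold lower in hypoxia than in normoxia (1.503 to 1.65) and 1.79-fold lower with oxamate than in hypoxia (1.68 to 1.90). Neither step passed the 2-fold rule, whereas oxamate against normoxia did, at 2.81-fold lower (2.65 to 2.98). SLC25A12 (aralar), the other aspartate-glutamate carrier and the form of excitable tissues, was scarce, with 19 fragments with oxamate, 55 in hypoxia and 17 in normoxia. Its level was 3.02-fold higher in hypoxia than in normoxia (1.73 to 5.56) and 2.62-fold lower with oxamate than in hypoxia (1.53 to 4.67). SLC25A12 was measured only through its hypoxic fragments, so it could not have been called in the other direction in either comparison. Neither interval lay wholly beyond 2-fold.

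SLC25A15 encodes the ornithine carrier ORC1, which brings ornithine in for OTC and takes citrulline out. It had 154 fragments with oxamate, 271 in hypoxia and 562 in normoxia, or 1.45, 2.33 and 5.22 FPKM, the same order as SLC25A13. It was 2.22-fold lower in hypoxia than in normoxia (1.92 to 2.57), 1.59-fold lower with oxamate than in hypoxia (1.3004 to 1.95) and 3.53-fold lower with oxamate than in normoxia (2.95 to 4.25). The hypoxia call was not firm. It was lost when ratios were scaled by total fragments, which shifts all log2 ratios of this comparison by 0.16 (SLC25A15 at -0.99), and when ratios of TPM were used, which shifts them by 0.36 (-0.79). Its close paralog SLC25A2, an ornithine carrier without introns, had 4, 3 and 0 fragments, and 5 annotated SLC25A15 pseudogenes had 0.

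ODC1 encodes ornithine decarboxylase, the first and rate-limiting enzyme of polyamine synthesis and a textbook target of the transcription factor MYC. The gene (chr2:10439968-10448327, minus strand) had 4332 fragments with oxamate, 1358 in hypoxia and 5234 in normoxia. Its levels were 61.4, 17.5 and 72.9 FPKM, so hypoxia alone stood low and the oxamate culture came close to normoxia. It was 4.12-fold lower in hypoxia than in normoxia (3.88 to 4.38) and 3.53-fold higher with oxamate than in hypoxia (3.32 to 3.75). Against normoxia the oxamate library was 1.17-fold lower (1.12 to 1.22). That small difference changed sign with the scaling, from -0.25 to 0.03 on the log2 scale over the alternatives tried. ODC1 made up 55.1% of the summed FPKM of the 10 genes with oxamate, 23.8% in hypoxia and 38.1% in normoxia, and ranked first with oxamate and in normoxia but below SLC25A13 in hypoxia. Its processed pseudogene ODCP had 24, 19 and 26 fragments.

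Promoter windows from 250 bases before to 50 after each start were available in RefSeq (GRCh38.p14) for all 10 genes, 14 windows in all. They were searched on both strands for CACGTG, the E-box bound by MYC and its partner MAX, and for ACGTG and GCGTG, forms of the core of the hypoxia response element. CACGTG contains ACGTG on both strands, so each E-box also counts as ACGTG. The E-box was found in 4 of the 10 genes, ODC1, ASS1, CPS1 and SLC25A13, beside 8.77% of the 27305 genes in the table. ACGTG was found in 6 of 10, beside 24.9%, and GCGTG in 4 of 10, beside 40.6%. ASL, ARG1 and NAGS held none of the motifs, and OTC held GCGTG alone. Genes with several windows have more chances of a match. The stretches with an E-box in the genes called lower in hypoxia or with oxamate, apart from CPS1, and the ACGTG of ARG2, which was called higher, are shown 5′ to 3′ on the gene's strand with the motif in capitals.
ODC1: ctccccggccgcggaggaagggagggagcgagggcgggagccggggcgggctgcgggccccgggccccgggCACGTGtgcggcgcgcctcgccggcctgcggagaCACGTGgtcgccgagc
ASS1: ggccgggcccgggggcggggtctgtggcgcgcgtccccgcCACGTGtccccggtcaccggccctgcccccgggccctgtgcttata
SLC25A13: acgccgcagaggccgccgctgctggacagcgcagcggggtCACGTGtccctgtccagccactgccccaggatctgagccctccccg
ARG2: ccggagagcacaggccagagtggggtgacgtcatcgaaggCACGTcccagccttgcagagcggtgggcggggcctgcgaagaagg

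The ODC1 stretch (chr2:10447992-10448112, minus strand) surrounds the more downstream of its 2 RefSeq starts, 315 bases inside the gene from the other, and overlaps no ODC1 exon of GENCODE 29. Its E-boxes begin 29 bases before and 5 bases after that start. The ASS1 E-box (stretch chr9:130444850-130444935) begins 71 bases before its start, and that of SLC25A13 (chr7:96322207-96322292, minus strand) 154 bases before. In ARG2 (chr14:67619723-67619807) the capitals are ACGTG read on the opposite strand, 157 bases before the start. The CPS1 E-box, in 1 of 3 CPS1 windows, lies 46 bases before a start but inside an annotated exon and is not printed. A match of letters does not show that a factor binds there.

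MYC itself had 963 fragments with oxamate, 933 in hypoxia and 3856 in normoxia, or 8.31, 7.32 and 32.7 FPKM. It was 4.42-fold lower in hypoxia than in normoxia (4.12 to 4.75), beside 4.12-fold for ODC1. With oxamate its ratio to hypoxia was 1.14 (1.04 to 1.25), beside 3.53 for ODC1. These are RNA levels alone, and a part of MYC in the level of ODC1 was not tested. SRM, spermidine synthase, also known as a MYC target, had 556, 671 and 2996 fragments with oxamate, in hypoxia and in normoxia. SRM was 4.78-fold lower in hypoxia than in normoxia (4.39 to 5.20), and its ratio of oxamate to hypoxia was 0.917 (0.818 to 1.03). Per exon length ODC1 stood at 5.29 times SRM with oxamate, 1.37 times in hypoxia and 1.19 times in normoxia.

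Of 17 further genes of polyamine metabolism, 13 were measured. In hypoxia 3 were lower, SRM, the agmatinase-like AGMAT at 3.58-fold (3.35 to 3.83) and the amino acid transporter heavy chain SLC3A2 at 2.44-fold (2.30 to 2.60), and 1 was higher, the spermine oxidase SMOX at 2.76-fold (2.57 to 2.96). The shares among all measured protein-coding genes were 8.52% lower and 8.11% higher. The acetyltransferase SAT1, which starts polyamine catabolism, had 2949 fragments with oxamate, 2409 in hypoxia and 1181 in normoxia. It was 1.91-fold higher in hypoxia than in normoxia (1.78 to 2.05) and 2.58-fold higher with oxamate than in normoxia (2.41 to 2.76). With oxamate against hypoxia, SLC3A2 alone passed the rule, at 2.07-fold higher (1.94 to 2.21). AMD1, whose product supplies the aminopropyl groups, came next at 1.93-fold higher (1.87 to 1.995). The antizymes OAZ1 and OAZ2, which bind ornithine decarboxylase and send it to the proteasome, were at ratios of 1.13 and 0.831 in oxamate against hypoxia, and the antizyme inhibitor AZIN1 at 0.764. SMS, spermine synthase, held 3109, 3070 and 3471 fragments in the 3 libraries.

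**Figure D3:**
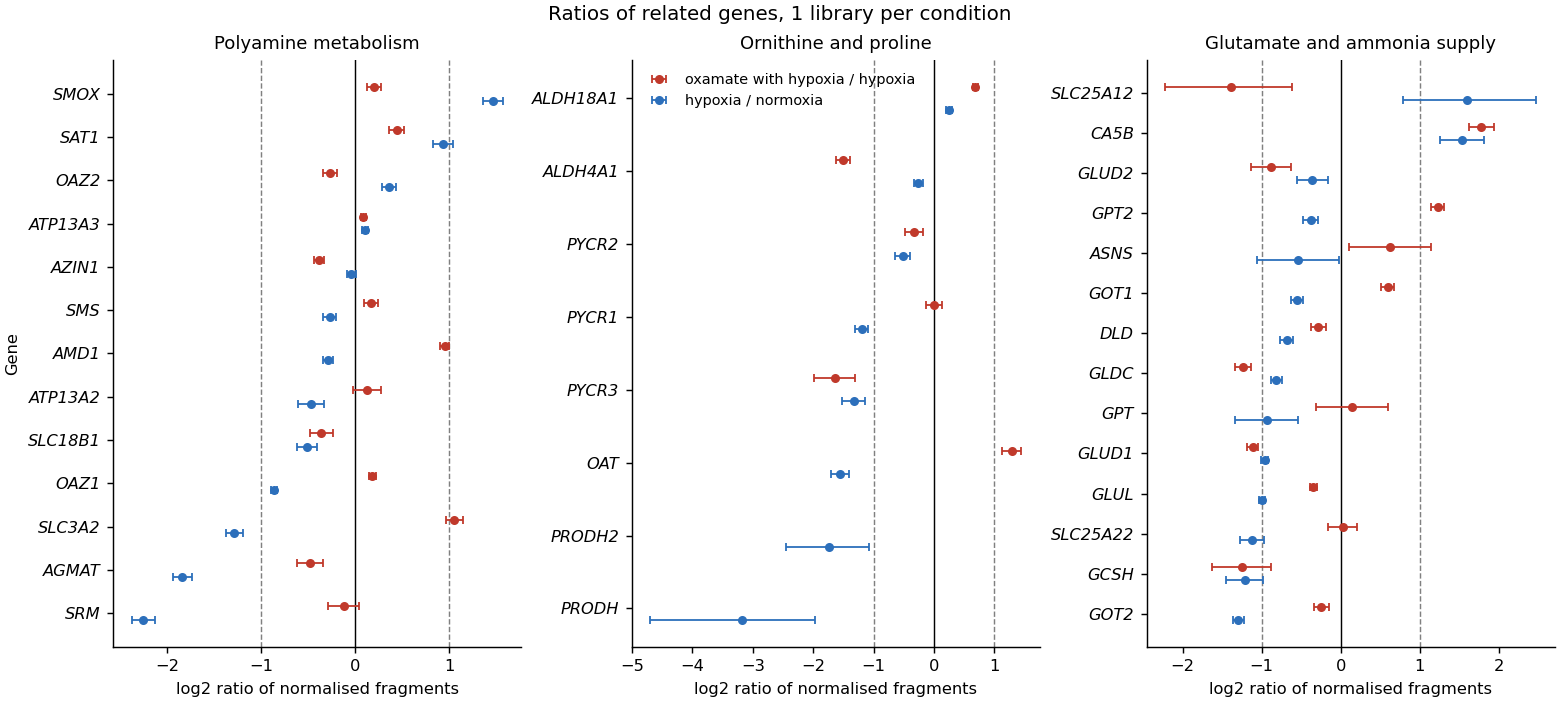
Log2 ratios of normalised fragments, with exact 95% binomial intervals, for genes of 3 related lists; red is oxamate with hypoxia over hypoxia and blue is hypoxia over normoxia, and dashed lines mark 2-fold. SLC3A2, OAT, CA5B and GPT2 have red points beyond 2-fold to the right, and SRM, AGMAT, OAT and GOT2 have blue points beyond 2-fold to the left.

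Ornithine has a second exit through OAT, ornithine aminotransferase, toward glutamate and proline. OAT had 1032 fragments with oxamate, 468 in hypoxia and 1283 in normoxia, the same order of libraries as ODC1. It was 2.93-fold lower in hypoxia than in normoxia (2.64 to 3.27) and 2.44-fold higher with oxamate than in hypoxia (2.19 to 2.73). Of 8 genes of ornithine and proline metabolism, all measured in hypoxia against normoxia, 5 were lower and 0 higher, against 8.52% and 8.11% of all measured protein-coding genes. They were OAT, the pyrroline carboxylate reductases PYCR1 at 2.29-fold (2.12 to 2.48) and PYCR3 at 2.51-fold (2.21 to 2.87), and the proline and hydroxyproline dehydrogenases PRODH and PRODH2, with 6 and 25 fragments in hypoxia against 51 and 78 in normoxia. PRODH and PRODH2 were measured only through their normoxic fragments, so they could not have been called higher, and with a minimum of 100 fragments 3 genes of the list were lower. With oxamate against hypoxia PYCR3 was a further 3.11-fold lower (2.47 to 3.94) and ALDH4A1, which oxidises the product of PRODH, 2.83-fold lower (2.61 to 3.08). ALDH18A1, which makes the same intermediate from glutamate, was 1.61-fold higher (1.57 to 1.66).

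Genes that supply glutamate, ammonia and bicarbonate to the cycle split in direction, with 3 higher and 4 lower of 15 measured in oxamate against hypoxia, where 5.04% of all measured protein-coding genes were higher and 4.79% lower. The alanine aminotransferase GPT2 was 2.34-fold higher with oxamate than in hypoxia (2.21 to 2.48). The mitochondrial carbonic anhydrase CA5B was 3.43-fold higher (3.08 to 3.83), although 22.3% of its exon bases overlap other annotated genes, its pseudogene CA5BP1 among them. GLUD1, which releases ammonia from glutamate, was lower with oxamate by 2.16-fold against hypoxia (2.06 to 2.27) and by 4.22-fold against normoxia (4.04 to 4.41). The glycine cleavage genes GLDC and GCSH were lower with oxamate by 2.36-fold (2.20 to 2.54) and 2.38-fold (1.85 to 3.09) against hypoxia. In hypoxia against normoxia, 2 of 15 measured genes of this list were higher and 3 lower, beside 8.11% and 8.52% of all measured protein-coding genes. The higher ones were SLC25A12 and CA5B. CA5B had 1363 fragments with oxamate, 439 in hypoxia and 142 in normoxia, so it was higher in hypoxia even without oxamate. The mitochondrial aspartate aminotransferase GOT2 was 2.45-fold lower in hypoxia than in normoxia (2.34 to 2.58), and GLUL, glutamine synthetase, was 1.99-fold lower (1.94 to 2.04).

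Among arginine transport and nitric oxide genes, 6 of 11 were measured. The arginine transporter SLC7A2 had 1773 fragments with oxamate, 6128 in hypoxia and 5640 in normoxia, and was lower with oxamate by 3.12-fold against hypoxia (2.96 to 3.30). SLC7A1, the widely expressed transporter of the same family, was at 1.63 (1.53 to 1.73). DDAH1, which breaks down methylated arginines, showed the ODC1 order, 2.41-fold lower in hypoxia than in normoxia (2.26 to 2.57) and 2.35-fold higher with oxamate than in hypoxia (2.20 to 2.50). The nitric oxide synthases NOS1, NOS2 and NOS3 had at most 15 fragments in any library. In creatine synthesis, which also starts from arginine, GATM was 4.52-fold higher in hypoxia than in normoxia (3.03 to 6.94), the next enzyme GAMT 3.44-fold lower (3.224 to 3.67), and the creatine transporter SLC6A8 9.11-fold higher (8.65 to 9.60). GATM had 145 fragments in hypoxia and 30 in normoxia. It was measured there only through its hypoxic fragments, so it could not have been called lower. Of 7 genes of urea and ammonia transport 3 were measured, and the ammonia channel gene RHBG was the only one called, with 9 fragments with oxamate, 71 in hypoxia and 162 in normoxia. In both comparisons with oxamate RHBG was measured only through the other library, so it could not have been called higher there. Calls in this list depended on scaling. In hypoxia against normoxia the aquaglyceroporin genes AQP3 and AQP7 passed the rule as higher under total-fragment scaling, with log2 ratios of 1.06 and 1.12, and under TPM, at 1.27 and 1.32, while RHBG fell short under TPM, at -0.92.

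Of 18 measured regulators of urea cycle genes, 5 were lower and 0 higher in hypoxia than in normoxia, against 8.52% lower and 8.11% higher of all measured protein-coding genes. Total-fragment scaling left 2 of them lower, with CEBPA at a log2 ratio of -0.97, CEBPB at -0.85 and the bile acid receptor gene NR1H4 at -0.98, and TPM gave 2 lower and 1 higher. KLF15, an activator of amino acid catabolism, had 60, 50 and 384 fragments with oxamate, in hypoxia and in normoxia, and was 8.22-fold lower in hypoxia than in normoxia (6.11 to 11.3). CEBPA, a C/EBP factor that in mice is needed for hepatic CPS1 expression, had 496, 2981 and 6073 fragments. It stood 2.18-fold lower in hypoxia than in normoxia (2.09 to 2.28), and 5.43-fold lower in oxamate against hypoxia (4.94 to 5.99). CEBPB had 467 fragments with oxamate, 235 in hypoxia and 440 in normoxia, and was lowest in hypoxia. HNF4A, the hepatocyte nuclear receptor, was 1.49-fold lower in hypoxia than in normoxia (1.44 to 1.55) and at 0.922 of its hypoxic level with oxamate.

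Over all 101 genes of the 8 related lists, 5 were higher and 25 lower of 81 measured in hypoxia against normoxia, 8 higher and 10 lower of 78 in oxamate against hypoxia, and 8 higher and 32 lower of 80 in oxamate against normoxia. The lists were chosen with earlier results of these data known, so their shares are a description and not independent evidence. As shares of the measured genes, 6.17% were higher and 30.9% lower in hypoxia against normoxia, beside 8.11% and 8.52% of all measured protein-coding genes. The shares were 10.3% and 12.8% in oxamate against hypoxia, beside 5.04% and 4.79%, and 10% and 40% in oxamate against normoxia, beside 12.2% and 16.4%. The first split depended on scaling, since ratios of TPM gave 9 higher and 10 lower in hypoxia against normoxia. TPM shifts the log2 ratios of all genes in that comparison by 0.36, and the shares of all protein-coding genes above are for the main scaling. Whether the lists still differ from all genes under TPM is therefore not shown. Among the genes named above, SLC3A2, PYCR1, PYCR3, GOT2, GCSH, DDAH1, RHBG, CEBPA, CEBPB and NR1H4 fell short of 2-fold in that comparison under TPM, with log2 ratios of -0.64 to -0.97. SLC3A2 also fell short in oxamate against hypoxia, at 0.93. Exons of other genes overlap CEBPA (43.4% of exon bases), ALDH4A1 (41.1%), PYCR1 (29.7%), GLUD1 (13.2%), GCSH (12.02%) and CEBPB (11.8%). Hypusination and methionine salvage, the paths that use spermidine and recycle its by-product, had 6 of 13 genes lower and 0 higher in hypoxia than in normoxia, beside the same 8.52% and 8.11%. Under TPM 2 genes of this list were lower, and those that fell short included APIP at a log2 ratio of -0.97, ADI1 at -0.81 and AHCY at -0.69. Among the 6 was MAT1A, the hepatocyte methionine adenosyltransferase, with 13 fragments in hypoxia against 89 in normoxia, which was measured only through its normoxic fragments.

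**Figure D4:**
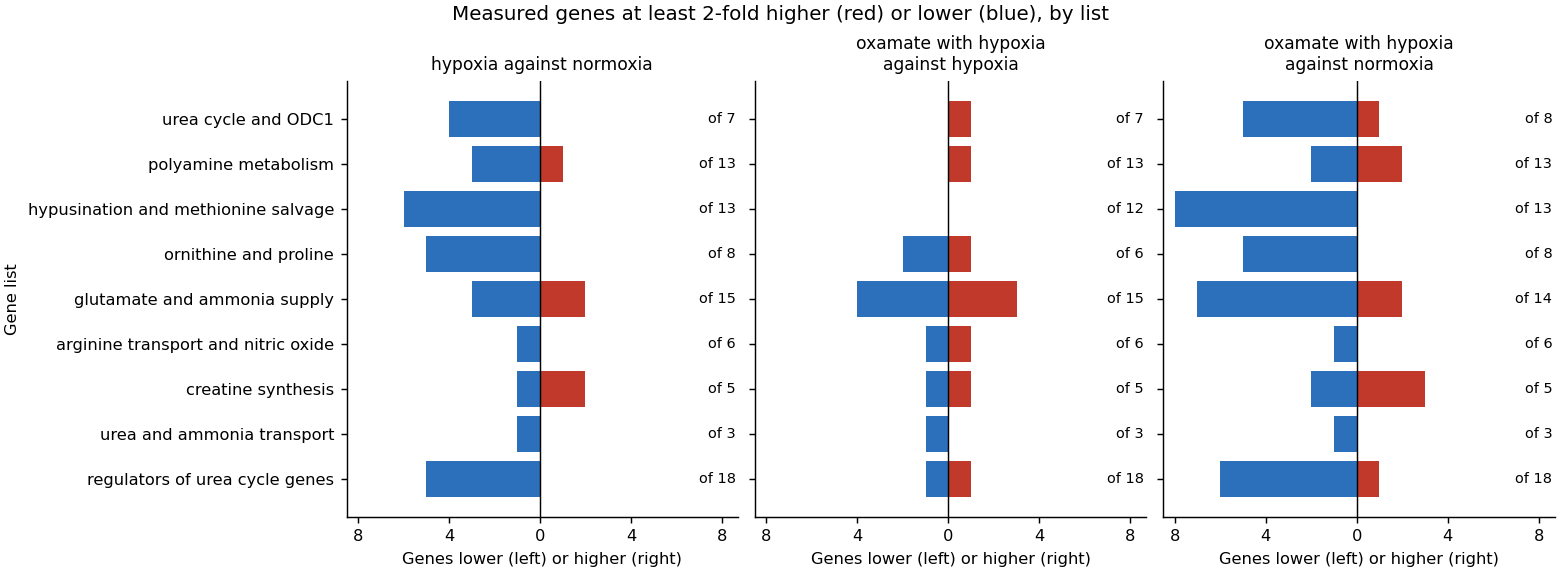
Number of measured genes at least 2-fold higher (red, right) or lower (blue, left) in each list and comparison, with the number measured at the right of each bar. The urea cycle and ODC1 row shows 4 lower of 7 in hypoxia against normoxia, 1 higher of 7 in oxamate against hypoxia, and 5 lower and 1 higher of 8 in oxamate against normoxia.

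To see how common each pattern was, members were compared with 12040 protein-coding genes by Euclidean distance between log2 CPM values centred over the 3 libraries. The patterns of ASL, NAGS, SLC25A13, ARG2 and SLC25A15 were common, with 781, 730, 373, 362 and 233 genes within a distance of 0.25. Their nearest genes were C17orf58 and HDDC3 for ASL, ATP11A and TRAM2 for NAGS, DECR2 and CENPU for SLC25A13, ABCA5 and HOXC9 for ARG2, and MSRB1 and FAIM for SLC25A15. ASS1 had 9 genes within that distance, and SCARA3 was nearest (0.0697), with 283 fragments with oxamate, 319 in hypoxia and 2448 in normoxia, followed by PLD6. ODC1 had 5, of which STEAP1 (0.175), with 54, 15 and 55 fragments, and TMEM164 (0.184), with 815, 304 and 1032, were nearest. CPS1 had none. Its nearest were SCGN at 0.709, with 8, 5 and 245 fragments, and HABP2 at 1.69, with 46, 55 and 956.

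Seen as a pathway, the order of levels per exon length differed between the libraries. In normoxia ODC1 led, ASS1 and SLC25A13 followed with overlapping counting intervals, then ARG2 and ASL, also overlapping, then SLC25A15, with CPS1, NAGS, OTC and ARG1 under 1 FPKM, where neighbours in the order overlapped. In hypoxia SLC25A13 led at 28.7 FPKM, followed by ODC1, ARG2, and then ASS1 and ASL with overlapping intervals. With oxamate ODC1 and ARG2 led. The place of SLC25A15 rests on the exon length of 4186 bases in the tables, against 1837 in GENCODE 29, and like that of ASL it would be higher with the shorter length. The 5 enzymes CPS1, OTC, ASS1, ASL and ARG1 summed to 9.80 FPKM with oxamate, 11.3 FPKM in hypoxia and 57.0 FPKM in normoxia, and ASS1 alone made up 58.9%, 52.2% and 80.9% of those sums.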

How the data were processed

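The authors deposited 1 table per library with FPKM per gene, per the file headers, from polyadenylated RNA. Tools listed in the submitters' processing notes were featureCounts 1.5.0-p3, HISAT2 2.0.5, edgeR 3.22.5 and StringTie 1.3.3b, and the build was hg38. Parameters were not given in the sources used here. FPKM multiplied by exon length was a whole multiple of 1 constant per library (100% of values above 0 within 0.01), and these multiples were used as fragments. The 21987 genes that reached 10 fragments in all were scaled by trimmed means of M values in Python 3.11.15 (numpy 2.4.6, scipy 1.17.1, pandas 2.3.3, statsmodels 0.14.6). The factors were 1.01 with oxamate, 1.05 in hypoxia and 0.943 in normoxia. Fragments were amplified and carry no molecular identifiers, so intervals, and the limit of 3 fragments for a count of 0, hold counting error only. Gene types, exon overlaps and GC content came from GENCODE 29. The procedure was tested on simulated counts drawn around the hypoxia library with counting error only, and with a small set of genes changed, as many up as down. Such a test cannot show how the procedure handles spread between cultures or wide changes of expression.

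Named genes were the 10 members, the 3 highest and 3 lowest measured genes of each related list in hypoxia against normoxia and in oxamate against hypoxia, paralogs, pseudogenes and overlapping genes, and the 2 nearest genes by pattern. OAZ1, SMS, GLUD1, GLUL, NOS1, NOS2, NOS3 and HNF4A were named after their values were seen, and 1 gene that the rule takes is not reported here or drawn. The members and lists were chosen with earlier results of these data known.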

Additional observations from a re-analysis of the deposited data

How the results depend on the processing

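Alternatives were other scalings (total fragments, median-of-ratios size factors, the deposited FPKM), no filter on low counts, fragment minimums of 10 and 100, a prior count of 2, a 1.5-fold rule, whole intervals beyond 2-fold, removal of exon length or GC trends, and leaving out genes overlapping another. Ratios of TPM and pseudogene fragments added to their parents were chosen after seeing the data. No call of a member changed direction, and 249 of 258 member ratios kept their side of the rule. With a minimum of 10 fragments, 1 member (ARG1) became lower in oxamate against hypoxia. The 4 members lower in hypoxia against normoxia were 3 under total-fragment scaling, TPM and whole intervals, 5 with that minimum and 6 with the 1.5-fold rule, and the 5 lower in oxamate against normoxia ranged between 4 and 7. With the 1.5-fold rule, 3 members were higher and 2 lower in oxamate against hypoxia, and the related lists had 9 higher and 39 lower in hypoxia against normoxia, 15 higher and 16 lower in oxamate against hypoxia, and 14 higher in oxamate against normoxia. Total-fragment scaling gave 8 related genes higher in hypoxia against normoxia, and TPM gave 9 higher and 10 lower. Shares over all protein-coding genes are given for the 2-fold rule and main scaling alone. Counts under the alternatives have no such share beside them and describe only how the calls moved. Without overlapping genes, 6 related genes were lower in oxamate against hypoxia and 0 members higher in oxamate against normoxia. The members' median ranged from -2.04 to -0.79 in hypoxia against normoxia, from -0.19 to 0.02 in oxamate against hypoxia and from -1.65 to -1.14 in oxamate against normoxia. No replicate could be left out with 1 library per condition. No paired analysis was possible because each condition had 1 library. The values of CPS1, OTC and ARG1 in the low-oxygen libraries are limited by depth.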
